A study of Camelus dromedarius with 10 samples.

Results

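The enzymes described here make or break down the small transmitters that reach or are made in the supraoptic nucleus (SON) of the dromedary camel, Camelus dromedarius. Tyrosine hydroxylase (TH), aromatic L-amino acid decarboxylase (DDC) and monoamine oxidases A and B (MAOA, MAOB) handle monoamines, the glutamate decarboxylases GAD1 and GAD2 and GABA transaminase (ABAT) handle GABA, histidine decarboxylase (HDC) makes histamine, and choline acetyltransferase (CHAT) makes acetylcholine. The rule that chose them was a list of names and used no measured value, though earlier results of these data were known when it was written, and all 9 were found among the 22444 gene IDs of the count table. RNA was sequenced from punches of the rostral SON of 5 control camels that drank freely and 5 camels kept without water for 20 days (WD). All were ranch-housed males of similar age with free access to food, no transgene or drug was used, and each library came from a separate animal. The question the comparison addresses is which transcripts of the nucleus differ after prolonged dehydration.

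The SON holds magnocellular neurones that make vasopressin and oxytocin. These neurones sense osmolality themselves and also respond to transmitters released from other neurones. GABA is the main inhibitory transmitter of these cells, while noradrenaline, acetylcholine and histamine are among their other inputs. Enzymes of an input neurone are translated mostly in its cell body, so mRNA in a punch would come largely from cells in the nucleus or at its edge, and glia carry the degrading enzymes as well as neurones do.

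Depth differed widely between libraries and set what could be measured for the rarer enzymes. Control libraries held 1665098 to 7518432 assigned read pairs and WD libraries 4227685 to 8126641, but 5 gene IDs took 27.7% to 76.1% of a library. Outside those 5 IDs, control library 13 (CON13) kept 397495 read pairs and WD library 6 (WD6) kept 1106575, the fewest of each group. One read pair was worth 1.20 CPM (counts relative to library size, scaled by TMM) in CON13 and 0.475 CPM in WD6, against 0.0864 to 0.237 CPM in the other libraries. Of the magnocellular markers, PDYN, SIM1 and OTP were all detected in every library, with a summed level of 189 to 336 CPM in controls and 525 to 881 CPM in WD. That difference was PDYN (162 and 618 CPM on average), the only one of the 3 that edgeR called. SIM1 had a log2 fold change of -0.04. OTP was lower in WD, with a log2 fold change of -0.58 (edgeR unadjusted p = 0.0255, adjusted p = 0.454), and its groups overlapped. PDYN and OTP, 2 of the 3, were thus at an unadjusted p under 0.05 (9.31% of all genes tested), in opposite directions. The gene IDs of vasopressin and oxytocin were not paired with a symbol and were not analysed here.

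None of the enzymes was called. With so few genes that is near the share over all genes, and it does not show that their levels were unchanged. Of the 9, 7 passed the filter on low counts, and edgeR's quasi-likelihood test called 0 of these 7 (adjusted p up to 0.05 counts as called), against 0.499% of the 14432 genes tested, 0.27% being higher and 0.229% lower in WD. The adjusted p of the 7 ran from 0.686 to 0.980. At an unadjusted p under 0.05 the count was also 0 of 7, against 9.31% of all genes tested, and DESeq2 called 0 of the 8 enzymes to which it gave an adjusted p, all but HDC, against 1.27% of all genes with one, and had 0 of 9 at an unadjusted p under 0.05. The fitted log2 fold change, WD over control, was above 0 for TH, MAOA and ABAT and below 0 for DDC, MAOB, GAD1 and GAD2. Its median was -0.04 over the 7 and 0.02 over all genes tested. The sign turned for GAD2 with the libraries used, and for GAD1 when libraries were scaled by their totals only. The groups of 5 overlapped for every enzyme, whereas they stood apart for 2.62% of all genes tested. In such tissue, fewer cells of a type and less RNA per cell cannot be told apart.

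**Figure D1:**
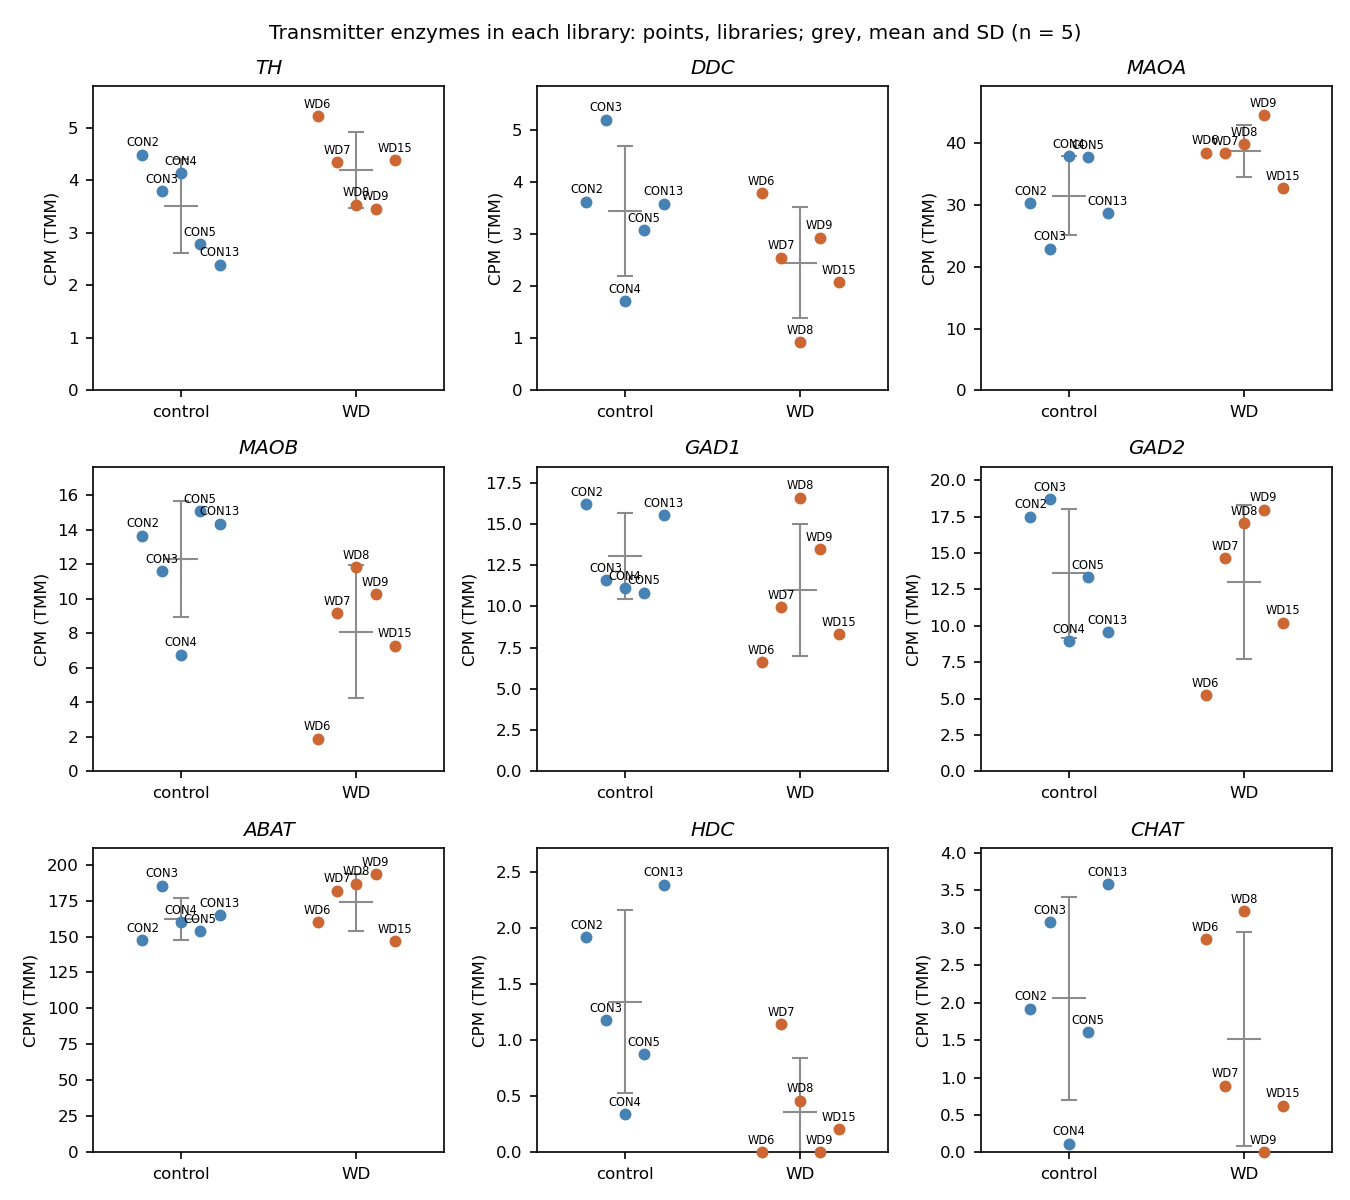
Level of each enzyme in CPM (vertical axis, TMM-scaled, from 0 and with its own range in each panel) in 5 control and 5 WD libraries. Points are libraries with their names, and grey marks are the mean and SD; WD6 lies lowest of all 10 libraries for MAOB (1.90 CPM), GAD1 (6.64 CPM) and GAD2 (5.22 CPM), and highest for TH (5.22 CPM).

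TH catalyses the rate-limiting step of catecholamine synthesis, the hydroxylation of tyrosine to L-DOPA. Its level was 4.48, 3.78, 4.13, 2.78 and 2.39 CPM in CON2, CON3, CON4, CON5 and CON13, and 5.22, 4.34, 3.53, 3.46 and 4.38 CPM in WD6, WD7, WD8, WD9 and WD15. WD6 was the highest library and CON13 the lowest, and the rest of both groups lay intermixed. These levels rest on few reads, from 2 read pairs in CON13 to 40 in WD9. The means were 3.51 ± 0.893 CPM in controls and 4.18 ± 0.722 CPM in WD (SD, n = 5 each). The fitted log2 fold change was 0.18 (SE 0.362, edgeR adjusted p = 0.942), and its 95% interval ran from -0.58 to 0.94, or 0.667-fold to 1.92-fold. Over the alternative fits the log2 fold change of TH ran from 0.03 to 0.25.

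DDC converts L-DOPA to dopamine and 5-hydroxytryptophan to serotonin. In the same order of libraries its level was 3.63, 5.20, 1.72, 3.07 and 3.59 CPM in controls and 3.80, 2.55, 0.92, 2.94 and 2.08 CPM in WD. WD8 was the lowest library and CON4 the next, so each group held a low member, while WD6 lay among the higher controls. DDC had the same total, 78 read pairs, in either group. The means were 3.44 ± 1.25 CPM and 2.46 ± 1.06 CPM (SD, n = 5 each), with a fitted log2 fold change of -0.49 (SE 0.484, edgeR adjusted p = 0.820). The 95% interval, from -1.51 to 0.52, was the widest of the 7 enzymes tested and held both a 0.350-fold and a 1.44-fold level.

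MAOA and MAOB are the mitochondrial enzymes that oxidise monoamines. MAOA prefers serotonin and noradrenaline and is known from catecholamine neurones, while MAOB is known from astrocytes and from serotonin and histamine neurones. MAOA stood at 30.3, 22.9, 37.9, 37.8 and 28.7 CPM in controls and at 38.4, 38.4, 39.8, 44.5 and 32.7 CPM in WD. All 5 WD libraries lay above the control mean and 4 of them above the highest control library, and only WD15 fell within the control range. The means were 31.5 ± 6.37 CPM and 38.8 ± 4.21 CPM (SD, n = 5 each). The fitted log2 fold change of 0.29 (SE 0.183) did not pass the test (edgeR adjusted p = 0.686), with a 95% interval of -0.10 to 0.67.

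MAOB levels were 13.7, 11.6, 6.77, 15.1 and 14.4 CPM in controls and 1.90, 9.18, 11.8, 10.3 and 7.29 CPM in WD. All 5 WD libraries lay below the control mean, but CON4 lay below every WD library except WD6. The WD6 value came from 4 read pairs, the fewest of any library, against 35 to 119 in the other WD libraries and 12 in CON13. The means were 12.3 ± 3.35 CPM and 8.10 ± 3.84 CPM (SD, n = 5 each). The fitted log2 fold change was -0.50 (SE 0.334, edgeR adjusted p = 0.697), with a 95% interval of -1.20 to 0.20. It was -0.31 without WD6 and -0.29 without both shallowest libraries.

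The 2 oxidases leaned in opposite directions, and a ratio of read pairs within each library, which does not depend on how libraries are scaled, was used to compare them. In mammals the genes MAOA and MAOB are neighbours that lie tail to tail, and how reads shared between genes were counted is not given in the sources used here. MAOA had 2.21, 1.97, 5.55, 2.498 and 1.96 read pairs for each MAOB read pair in controls, and 18.1, 4.16, 3.35, 4.31 and 4.44 in WD, after 0.5 was added to each count. Every WD library exceeded 4 of the 5 controls, CON4 exceeded every WD library except WD6, and WD6 stood far above all others. On the log2 scale the mean ratio was 1.38 ± 0.629 in controls and 2.45 ± 0.981 in WD (SD, n = 5 each), a difference of 1.07, or 2.10-fold. The two-sided exact permutation p over all assignments of libraries to groups was 0.0397, and after adjustment over the 4 ratios tested it was 0.159 and did not pass the threshold. Without CON4 the difference was 1.34 (exact permutation p = 0.0159, adjusted p = 0.0635), and without WD6 it was 0.64 (exact permutation p = 0.0952, adjusted p = 0.238). Without both shallowest libraries it was 0.54 (exact permutation p = 0.143, adjusted p = 0.457), where fewer assignments remain and p cannot go as low. Astrocyte markers did not move as 1 group. The summed level of the 6 markers found, of 8 listed, was 308 to 392 CPM in controls and 408 to 580 CPM in WD, with 0 of the 6 called by edgeR, 4 at an unadjusted p under 0.05 (9.31% of all genes tested), and no marker at 0 in any library. Most of that sum was ALDOC (276 CPM on average in controls and 415 CPM in WD). Of the 4, ALDH1L1 (log2 fold change 0.55), ALDOC (0.59) and HIF3A (0.76) were higher and ACSBG1 (-0.81) lower in WD, whereas GLI3 stood at -0.04 and ENTPD2 at -0.34. ALDOC and ACSBG1, 2 of the 6, did not overlap between the groups (2.62% of all genes tested), in opposite directions, and the part of glia in the oxidase ratio was not tested. Microglial markers (CSF1R, SPI1 and IKZF1) summed to 107 to 169 CPM in controls and 99.0 to 340.2 CPM in WD, with CSF1R (0.62) at an unadjusted p under 0.05. Endothelial markers (KDR, TEK, FLT1 and TIE1) summed to 105 to 176 CPM and 130.03 to 257 CPM, with KDR (0.64) and FLT1 (0.62) at an unadjusted p under 0.05. edgeR called 0 of these 7, and their part was not tested. The symbols of ALDH1L1, ACSBG1 and ALDOC were at hand only through a table ranked by significance, so their share of low p-values is not independent of these data.

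**Figure D2:**
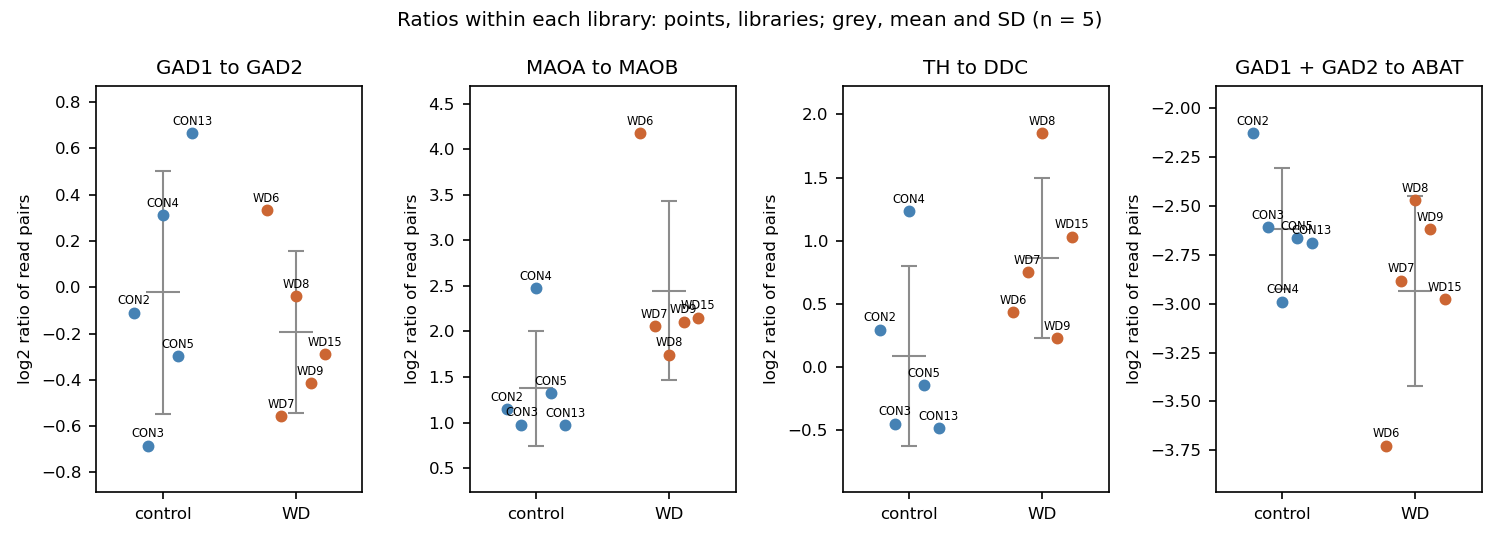
Log2 ratio of read pairs between enzymes (vertical axis, its own range in each panel) in 5 control and 5 WD libraries, with 0.5 added to each count. Points are libraries and grey marks the mean and SD; for MAOA to MAOB, WD6 stands at 4.18 and the other WD libraries at 1.74 to 2.15, against 2.47 in CON4 and 0.97 to 1.32 in the other controls.

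The ratio of TH to DDC, the consecutive steps from tyrosine to dopamine, was treated in the same way. Its log2 mean was 0.09 ± 0.712 in controls and 0.86 ± 0.634 in WD (SD, n = 5 each), a difference of 0.77. All 5 WD libraries lay above the control median, yet CON4 at 1.24 exceeded every WD library except WD8 at 1.85, and the exact permutation test gave p = 0.119 (adjusted p = 0.238). In CON13 this ratio set 2 TH read pairs against 3 of DDC.

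GAD1 and GAD2 encode the decarboxylases GAD67 and GAD65, which make GABA from glutamate in the cytoplasm and at the synaptic vesicle respectively. GAD1 was at 16.2, 11.6, 11.1, 10.8 and 15.5 CPM in controls and at 6.64, 9.95, 16.6, 13.5 and 8.33 CPM in WD. The WD libraries spread to both sides of the controls, with WD6, WD15 and WD7 below the lowest control and WD8 above the highest. Its means were 13.1 ± 2.60 CPM and 11.0 ± 4.02 CPM (SD, n = 5 each), and the fitted log2 fold change was -0.18 (SE 0.262, edgeR adjusted p = 0.899, 95% interval -0.73 to 0.37).

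GAD2 stood at 17.5, 18.7, 8.95, 13.3 and 9.57 CPM in controls and at 5.22, 14.7, 17.1, 18.0 and 10.2 CPM in WD. Apart from WD6, which was the lowest library, every WD value fell inside the control range. Its means were 13.6 ± 4.45 CPM and 13.02 ± 5.30 CPM (SD, n = 5 each), with a fitted log2 fold change of -0.04 (SE 0.297, edgeR adjusted p = 0.980, 95% interval -0.67 to 0.58). The direction of GAD2 turned with the libraries used, being 0.12 without WD6 and 0.05 without both shallowest libraries, so the sign of its fitted value was not stable. The log2 ratio of GAD1 to GAD2 was -0.02 ± 0.526 in controls and -0.19 ± 0.351 in WD (SD, n = 5 each), and the difference of -0.17 lay within the spread of either group (exact permutation p = 0.587, adjusted p = 0.587).

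WD6 was thus low for both decarboxylases. Transcription factors of the GABAergic lineage were too scarce to rank the libraries closely. The summed level of DLX1, DLX2, DLX5, DLX6, LHX6, SP8 and SP9 was 3.32 CPM in WD6, from 7 read pairs, 3.37 to 7.52 CPM in the other WD libraries and 4.25 to 15.5 CPM in controls, and 6 of these 7 genes had no read pair in at least 1 library. How much GABAergic tissue bordering the nucleus each punch held was not tested.

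ABAT, the mitochondrial transaminase that degrades GABA in neurones and astrocytes, was the steadiest of the enzymes, with a coefficient of variation of 10.3% over the 10 libraries. Its level was 147.5, 185, 160, 154 and 165 CPM in controls and 160, 182, 187, 193 and 146.7 CPM in WD. WD8 and WD9 lay above the highest control by a small margin and WD15 just below the lowest, and WD6 lay at the middle of the controls. The means were 162 ± 14.4 CPM and 174 ± 19.7 CPM (SD, n = 5 each), with a fitted log2 fold change of 0.10 (SE 0.154, edgeR adjusted p = 0.903). Its 95% interval, -0.22 to 0.43, was the narrowest of the 7 and held no change larger than 1.34-fold upwards or 0.856-fold downwards.

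The ratio of GAD1 and GAD2 together to ABAT sets GABA synthesis transcripts against the transcript that breaks GABA down. Its log2 mean was -2.62 ± 0.312 in controls and -2.93 ± 0.487 in WD (SD, n = 5 each). The difference of -0.32 did not pass the exact permutation test (p = 0.302, adjusted p = 0.402) and was -0.12 without WD6, whose ratio of -3.73 lay below every other library.

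**Figure D3:**
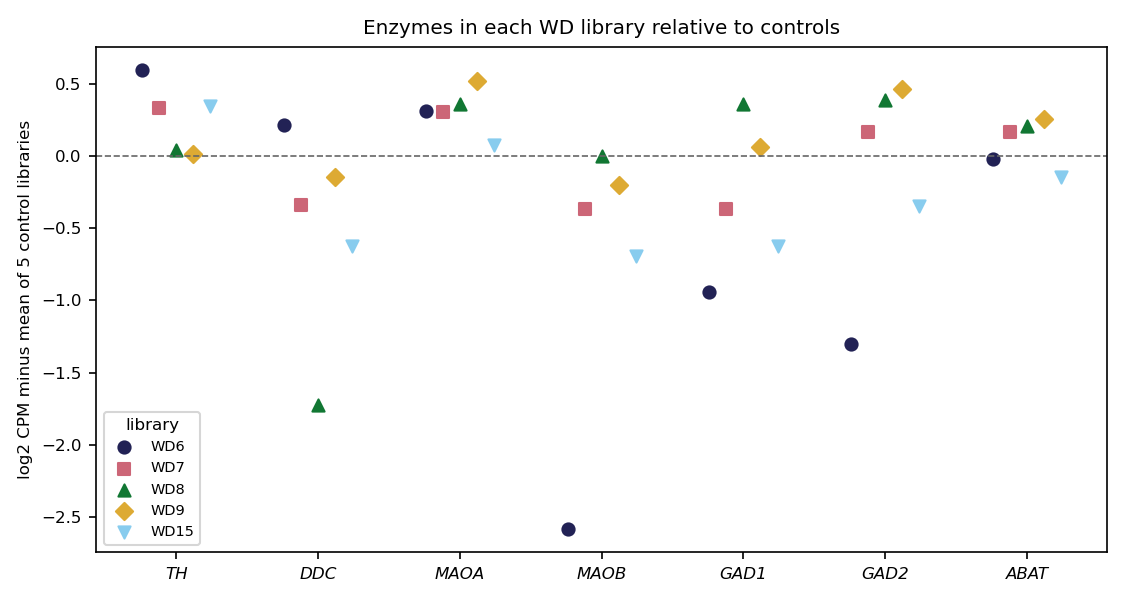
Log2 CPM of each enzyme in each of the 5 WD libraries minus the mean log2 CPM of the 5 control libraries (vertical axis), with the enzymes along the horizontal axis and 1 symbol for each library. WD6 departs most from the controls for MAOB (-2.59), GAD2 (-1.30) and GAD1 (-0.94) but not for ABAT (-0.02), and WD8 departs most for DDC (-1.73).

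HDC and CHAT, which serve histamine and acetylcholine, did not pass the filter on low counts. HDC, the enzyme of the tuberomammillary neurones and of mast cells, had 9, 5, 3, 6 and 2 read pairs in controls and 0, 9, 3, 0 and 1 in WD, that is 1.92, 1.18, 0.34, 0.88 and 2.39 CPM against 0, 1.15, 0.46, 0 and 0.21 CPM. WD6 and WD9 held none, which at 3 counts still allows up to 1.42 CPM and 0.259 CPM, and all 5 WD libraries lay below the control mean. In a fit without the filter its log2 fold change was -1.56 (SE 1.04, edgeR adjusted p = 0.724). Without WD7, which held most of the WD reads, it was -2.62, at an unadjusted p under 0.05 but not called (edgeR adjusted p = 0.614). It was smaller without WD9 (-1.19), without WD6 (-1.30) and without both shallowest libraries (-1.17). The mast cell markers CPA3, KIT and GATA2 summed to 5.62 to 19.1 CPM in controls and 7.29 to 14.0 CPM in WD, with 0 called, and CPA3 at 0 in some libraries.

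CHAT had 9, 13, 1, 11 and 3 read pairs in controls and 6, 7, 21, 0 and 3 in WD, the same total of 37 in either group. In CPM this was 1.92, 3.08, 0.11, 1.61 and 3.59 against 2.85, 0.89, 3.23, 0 and 0.63, and each group held libraries at or near 0, CON4 and WD9. Without the filter the log2 fold change was -0.36 (SE 0.903, edgeR adjusted p = 0.949). This value was 0.0042 without WD9, -0.98 without WD8 and -0.95 with RIN as a covariate. The gene of the vesicular acetylcholine transporter lies within an intron of CHAT in mammals, so the same doubt about shared reads holds for CHAT. Markers of cholinergic neurones, LHX8, GBX1, ISL1 and NGFR, summed to 2.07 to 8.37 CPM in controls and 1.12 to 9.02 CPM in WD, WD9 being the lowest.

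The tendency of scarce transcripts towards lower values in WD was general. Of the 4477 gene IDs with at least 20 read pairs that did not pass the filter, 69.4% had a log2 fold change below 0 in the fit without it, with a median of -0.47, whereas 48.1% of the genes that passed lay below 0. HDC and CHAT, and TAT, DBH and PNMT described next, all belong to that class. Without CON13, where 1 read pair was worth most, 61.0% of the same gene IDs lay below 0, with a median of -0.24, a comparison added after the data were seen. In that fit the log2 fold change was -1.34 for HDC, -0.18 for CHAT, -0.27 for TAT, -0.45 for DBH and -1.92 for PNMT. The cause was not tested.

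The other enzymes of these transmitters that are reported here were not called either. Of 15 listed, 10 had a symbol paired with an ID in the tables used, 7 passed the filter, and edgeR called 0 of them, with 0 at an unadjusted p under 0.05, against 0.499% and 9.31% of all genes tested. DESeq2 called 0 of the 9 with an adjusted p, all but PNMT, against 1.27% of all genes, with 0 of 10 at an unadjusted p under 0.05. The 7 had 3 log2 fold changes above 0 and 4 below, with a median of -0.26, against 0.02 over all genes tested.

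Among monoamine enzymes, sepiapterin reductase (SPR), which makes the cofactor of TH, had a log2 fold change of 0.14 and the aldehyde dehydrogenase ALDH2 0.08. With 1 library left out SPR ran from 0.05 to 0.18. The tryptophan hydroxylases TPH1 and TPH2, which start serotonin synthesis, had values of -0.60 and -0.40. Leaving out 1 library moved TPH1 to between -0.90 (without CON4) and -0.32 (without CON13, its highest library at 7.17 CPM from 6 read pairs), and TPH2 to between -0.62 (without WD9) and -0.15 (without CON5). In the fit without a filter, dopamine beta-hydroxylase (DBH) stood at -0.57, PNMT, which makes adrenaline, at -1.79 and tyrosine aminotransferase (TAT) at -1.34, each at an unadjusted p above 0.05. With 1 library left out DBH ran from -0.81 (without CON5) to -0.15 (without CON2), and PNMT from -2.15 to -1.24. The TAT value rested on CON13, which held 8.37 CPM from 7 read pairs, and was -0.27 without that library and -0.08 without both shallowest libraries.

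ALDH5A1, which completes GABA breakdown after ABAT, had a log2 fold change of -0.26. It ran from -0.39 to -0.18 with 1 library left out, and up to -0.03 over all alternative settings. Of the cholinesterases, which end the action of acetylcholine, ACHE was at 0.41 (SE 0.232, edgeR adjusted p = 0.629) and BCHE at -0.41. Leaving out 1 library moved BCHE to between -0.68 and -0.19. ACHE had the lowest adjusted p of these enzymes. Its 95% interval was -0.08 to 0.90.

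**Figure D4:**
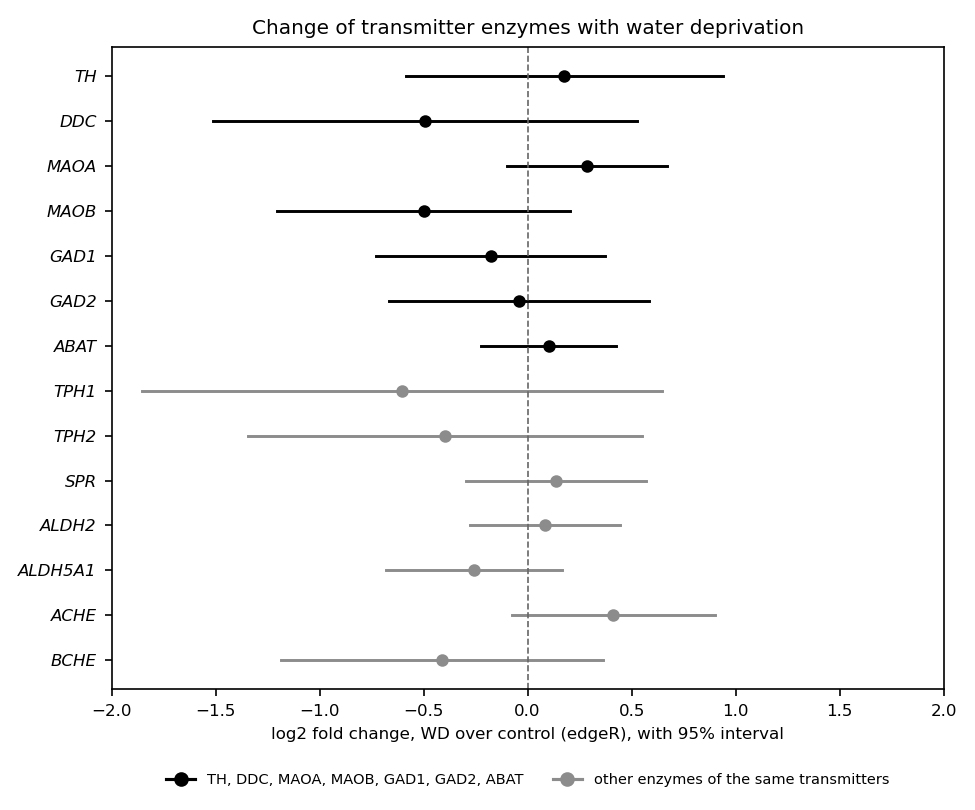
Fitted log2 fold change, WD over control (horizontal axis, edgeR), with its 95% interval for the 7 enzymes that passed the filter (black) and 7 other enzymes of the same transmitters (grey). Every interval includes 0, from the narrowest for ABAT (-0.22 to 0.43) to the widest for TPH1 (-1.85 to 0.65).

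Across the 10 libraries the enzymes of one transmitter did not all vary together. GAD1 and GAD2 had a Pearson's r of 0.669 (Spearman's rho 0.527), while MAOA and MAOB had -0.284 (rho -0.382) and TH and DDC -0.03 (rho 0.139). MAOB varied with both decarboxylases, at r = 0.796 with GAD1 and 0.788 with GAD2, where rho was 0.624 and 0.406. TH went the opposite way to MAOB, at r = -0.688 (rho -0.661). All of these describe 10 libraries that differ in depth and treatment, and WD6 is an extreme point for TH, MAOB, GAD1 and GAD2.

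Of 3359 tested genes with a symbol, those whose log2 CPM ran closest to MAOB were ZNF17 (r = 0.968), GUCY1A1 (0.954) and PTGFR (0.951), and to MAOA they were CEBPZ (0.949), HIGD1A (0.937) and ZNF471 (0.904). GAD2 lay closest to ZNF350 (0.921), GUCY1A2 (0.894) and MITF (0.880), and GAD1 to ZNF2 (0.857), ZBTB14 (0.844) and SLC16A14 (0.843). TH lay closest to ANKZF1 (0.880), TBX6 (0.870) and TBKBP1 (0.865), and CASP9 (0.872) and ABCB11 (0.851) were among the closest to DDC. ABAT had the weakest of these, with CCKAR (0.726), VPS37A (0.712) and QPCT (0.703). None of the genes named in these comparisons was called between groups by edgeR. CCKAR, a cholecystokinin receptor with a log2 fold change of 1.17 in WD, came nearest (edgeR adjusted p = 0.0601) and was the only one that DESeq2 called (adjusted p = 0.0103). With 10 libraries and so many genes compared such values are a description only.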

How the data were processed

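Rostral SON RNA from 10 camels, 5 control and 5 WD, was made into stranded, ribosomal RNA-depleted libraries and read as pairs. The authors merged the paired files, trimmed adaptors with BBDuk, aligned reads to Camdro2 with STAR and counted read pairs per Ensembl gene with featureCounts. The deposited counts are whole and not normalised. The strand setting, annotation release and handling of shared reads are not given in the sources used here. A second deposited table of signal, which the authors made by dividing counts by DESeq2 size factors, was not used.

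Symbols came from a copy of the study's supplementary tables in which longer tables were cut short. That copy pairs 4316 of 22444 IDs, 3038 of them in complete sheets. The 9 enzymes and the other enzymes of the same transmitters were taken from complete sheets; GCH1, PTS, GLUL, HNMT and QDPR were not analysed here. 3 astrocyte markers (ALDH1L1, ACSBG1, ALDOC) were paired only through an incomplete table ranked by significance. The enzymes and lists were chosen with earlier results of these data known. Some enzymes and markers of the lists, and a gene correlated with DDC, are not reported here, and counts over those lists leave them out. No coordinates are given, because the annotation at hand is of another assembly.

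Counts were fitted in R 4.3.3 with edgeR 4.0.16 (TMM, filterByExpr by group, robust glmQLFit and glmQLFTest), with Benjamini-Hochberg adjustment over 14432 genes and calls at an adjusted p of at most 0.05. Ratios within libraries were compared by two-sided exact permutation in Python 3.11.15 with scipy 1.17.1. With all 10 libraries p could not go below 0.00794, and without both shallowest libraries this floor was higher. Alternatives were DESeq2 1.42.0, other scalings and filters, RIN or depth group as a covariate, and leaving out libraries. The scripts were tested on simulated data. Replicates of a group differed by more than counting noise (lowest chi-square per degree of freedom 8.03). The rule for named genes was all 9 enzymes, the paired enzymes of the other list and, for each tested enzyme, the 3 genes with the highest Pearson correlation. Limits set by 0 counts cover counting error only.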

Additional observations from a re-analysis of the deposited data

Results flagged for a closer look

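Among 26 groups of 5 values checked with Dixon's ratio, 4 held a library that stood apart from the other 4 beyond the critical value of 0.71. Chance alone flags about 1 in 20 groups, but these groups are not independent, since the ratios are built from the same enzymes. MAOB was at a log2 CPM of 0.99 in WD6, where the next WD library was at 2.88. CHAT was at -2.32 in CON4, where the next control was at 0.76. The log2 ratio of MAOA to MAOB was 4.18 in WD6 against 2.15 in the next WD library. The same ratio was 2.47 in CON4 against 1.32 in the next control library. WD6 was the shallowest WD library and gave 4 MAOB read pairs, whereas CON4 was the deepest control library.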

How the results depend on the processing

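The fit called 72 genes over all, against 209 with DESeq2 and 10 with library totals only. It called 104 with RIN and 224 with depth group as a covariate. When 1 library was left out it called 40 (without CON3) to 102 (without WD6), with 42 without CON5. Library totals alone also moved the median log2 fold change of all genes to 0.16. None of the 9 enzymes was called under any of their 172 alternative values, of which 8 turned direction, and their lowest adjusted p was 0.458 (MAOB without CON4). Of the other enzymes none was called either, the lowest adjusted p being 0.270 (ACHE with RIN as a covariate). Over these settings the lowest unadjusted p of ACHE was 0.0061 in edgeR, and its log2 fold change ran from 0.29 to 0.58. GAD1 went to 0.045 and GAD2 to 0.18 with library totals only, and GAD2 to 0.049 without the 2 shallowest libraries. Leaving out 1 library gave -0.20 to 0.12 for GAD2, -0.98 to 0.0042 for CHAT, -0.011 to 0.15 for ALDH2, -0.34 to 9.8e-04 for the GAD1 to GAD2 ratio, and, with no turn of direction, 0.09 to 0.25 for TH, -0.72 to -0.29 for DDC, 0.16 to 0.36 for MAOA, -0.69 to -0.31 for MAOB, -0.40 to -0.07 for GAD1 and 0.04 to 0.16 for ABAT. ALDH2 was also -0.00075 with the depth covariate. The cause was not tested. With 1 library left out, the MAOA to MAOB difference ranged from 0.64 (without WD6) to 1.34 and that of TH to DDC from 0.52 to 1.06, and without the 2 shallowest libraries the first was 0.54, none of them past the threshold after adjustment. A filter of 10 counts in every library left only ABAT, GAD1 and MAOA of the 9 enzymes. No paired analysis was possible because the groups share no replicate number. Depth limits TH, DDC, HDC and CHAT most.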
